A study of Mus musculus with 1 sample.

Results

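Vwf-negative stem-like cells are bone marrow cells that carry transcripts of blood stem cell genes and no transcript of Vwf, which encodes the clotting protein von Willebrand factor. They were chosen by raw counts of unique molecular identifiers (UMIs), the tags that keep amplified copies of a transcript from being counted again. A cell was taken when it had at least 1 UMI of 2 or more of the genes Procr, Hlf and Mecom, 0 UMIs of Vwf, Flt3 and Treml1, and fewer than 3 UMIs of Pf4. This gate selected 434 of the 7645 cells that passed the study's cell filter, or 5.68% (exact Clopper-Pearson 95% interval 5.17 to 6.22%). The 7 gate genes chose the cells, so their levels are given below as a description and none of them is a result.

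The cells come from 1 library, sequenced cell by cell, of lineage-negative, Kit-positive bone marrow cells (LK cells, the fraction that holds hematopoietic stem cells and the progenitors of all blood lineages) from the femora and tibiae of control C57BL/6 mice. The control genotype is Brd9 fl/fl, floxed alleles without the interferon-inducible Mx1-Cre that deletes them, and the mice had received 3 doses of 20 mg/kg polyinosinic-polycytidylic acid (pIpC, an inducer of interferon) that began 4 weeks after birth or transplantation, and were studied 8 weeks later. The labels of the sample name a CD45.2+ donor and a CD45.1+ recipient, and so a transplant, whereas the study's methods describe cells of primary mice, and which applies was not settled. For primary mice the paper starts pIpC at an older age than 4 weeks after birth, so the age of the animals was not settled either. They also name a bulk RNA kit, whereas the matrix has the form of the 10x single-cell data that the methods describe. Cells with Brd9 deleted are not analysed here, and each comparison is between cells of the same library. A single library gives no replicate, so differences were not tested. The 95% intervals (exact Poisson for levels, conditional binomial for ratios, Clopper-Pearson for shares) cover counting error only, and a gene is called higher or lower by the size of its fold alone.

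Hematopoietic stem cells self-renew and give rise to every blood lineage, and most of them are quiescent in the adult marrow. Vwf, best known from platelets and endothelium, is also transcribed in a platelet-biased share of stem cells, and stem cells without it have been described as less biased to that lineage. Procr (endothelial protein C receptor) is a surface marker of stem cells, Hlf and Mecom are transcription factors needed for their maintenance, Flt3 is a receptor of multipotent and lymphoid progenitors, and Treml1 and Pf4 are megakaryocyte genes.

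The gated cells were shallow among the cells of the library. Their median depth was 8663.5 UMIs (lowest 4257, highest 47796) and 3012.5 genes, against 19214 UMIs and 4219 genes in the 7211 other filtered cells, and their median mitochondrial share was 4.63% against 3.48%. The order of gene counts turned when each cell was thinned at random to 5000 UMIs, which left out 4 gated and 95 other cells: the median was then 2058.5 genes (interval 2052 to 2069) in gated cells and 1929 genes (interval 1926 to 1933) in the others. Scrublet called 20 of the 434 cells as doublets (4.61%, interval 2.84 to 7.03), against 248 of the 7211 others (3.44%).

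A count of 0 for Vwf depends on depth. With Vwf left free, the gate held 747 cells, of which 313 (41.9%, interval 38.3 to 45.5) had a Vwf UMI. These Vwf-positive stem-like cells differ by rule in Vwf alone and are the closest comparison. Of them, 161 had 1 Vwf UMI, 85 had 2, 49 had 3 and the remaining 18 had 4 to 6. The Vwf-positive share was 33.2% in the shallowest quartile of the 747 cells by UMIs, 45.5% and 49.5% in the middle quartiles and 39.6% in the deepest, and it was 28.1% when the gate was applied after thinning to 5000 UMIs. Gated cells can therefore include cells that carry Vwf transcripts that were not captured. Some comparisons with Vwf-positive cells are also given against the 67 cells that had 3 or more Vwf UMIs.

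Levels are summed UMIs of a cell class per 1000000 UMIs of that class (CPM). Procr (chromosome 2, 155751117 to 155755471, plus strand, GRCm38) stood at 88.8 CPM in gated cells and 4.97 CPM in all other cells, Hlf (chromosome 11, 90336536 to 90390895, minus strand) at 363.2 and 34.2 CPM, and Mecom (chromosome 3, 29951296 to 30548008, minus strand) at 133 and 11.2 CPM, as the gate requires. Of the 434 cells, 171 (39.4%) carried all 3 markers, 171 carried Hlf and Mecom, 79 carried Procr and Hlf and 13 carried Procr and Mecom. Just outside the gate lay 574 cells with 1 marker and the same negative limits, 472 of them with Hlf alone. These stood far from the gated cells, at 13.1 CPM of Ly6a and 71.6 CPM of Meis1 against 91.2 and 261.6 CPM, and at a median of 116.5 UMIs of neutrophil granule genes per cell against 8. The 92 cells that met the gate but for 1 Flt3 UMI had 39.5 CPM of Ly6a, the 161 cells with 1 Vwf UMI had 103 CPM, and 2 cells had 3 Pf4 UMIs.

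The stem-like label was checked against 12 stem cell genes outside the gate. Genes were counted where the mean of the CPM in the compared classes was at least 10. Of the 12 genes 10 were counted, and all 10 were at least 2-fold higher in gated cells than in all other cells, from 3.14-fold for Mllt3 to 10.2-fold for Cdkn1c. Ly6a, which encodes the sorting antigen Sca-1 (chromosome 15, 74994877 to 74998031, minus strand), had a UMI in 39.3% of gated cells at 5000 UMIs (interval 34.7 to 44.1), in 0.085% of Klf1-positive erythroid progenitors and in 0.391% of Cebpe-positive neutrophil precursors, classes that should lack it. The remaining 2 genes were below that limit, with Fgd5, a gene used to report stem cells, at 16.2 CPM against 1.89 CPM and the stem cell gene Ctnnal1 at 12.1 CPM against 5.35 CPM.

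**Figure D1:**
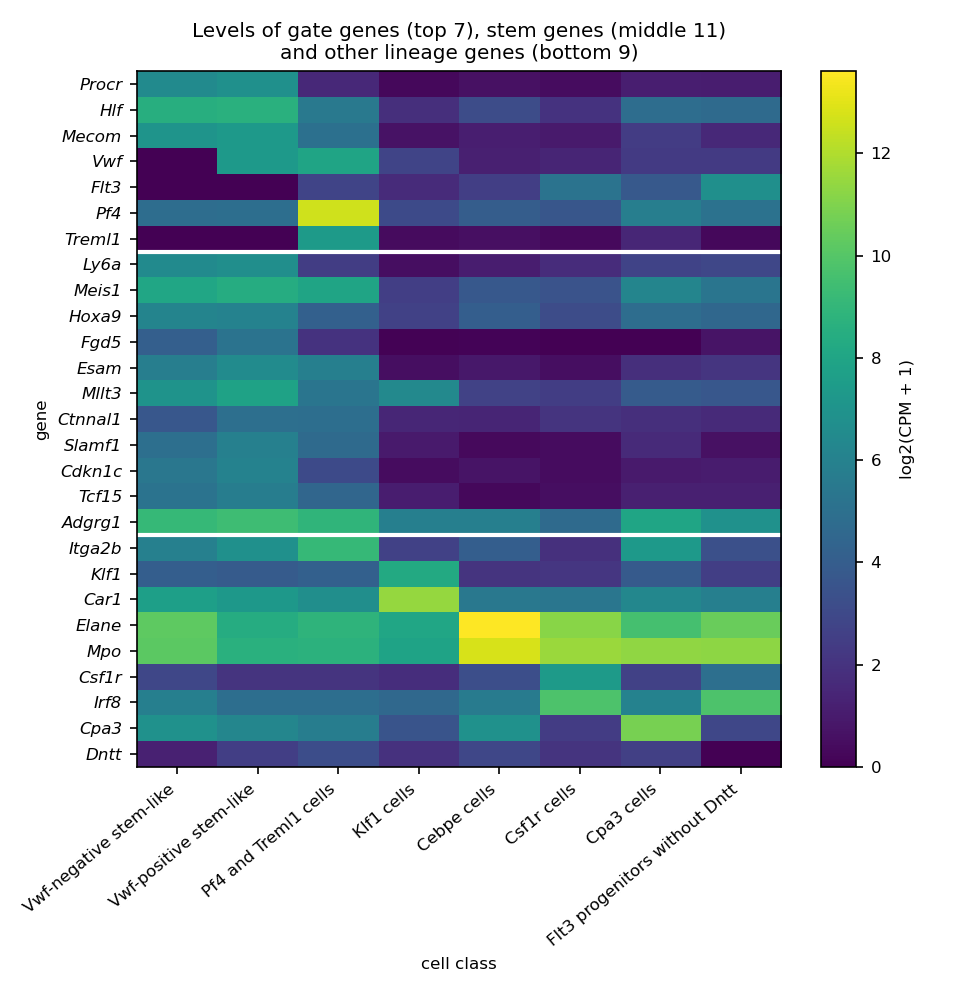
Heat map of the level, as log2(CPM + 1), of 27 genes (rows) in the gated cells and 7 other classes of the library (columns), with the 7 gate genes at the top, 11 of the 12 label genes in the middle and 9 genes of other lineages at the bottom. The stem genes are bright in the Vwf-negative and Vwf-positive stem-like columns and partly in Pf4 and Treml1 cells, while Elane and Mpo stood at 1220 and 1159 CPM in the gated cells.

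Against all other filtered cells, the gated cells had more transcript of stem cell regulators, immediate early genes and interferon-stimulated genes. They had less of granulocyte and mitosis genes in that comparison. For granulocyte and erythroid genes the direction depended on the class compared. Of 8351 genes counted, 814 (9.75%) were at least 2-fold higher and 242 (2.9%) at least 2-fold lower, and the median fold was 1.07 (quartiles 0.845 and 1.4). The other cells are a mixture of lineages, and the fold of a gene depends on how many of them express it.

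**Figure D2:**
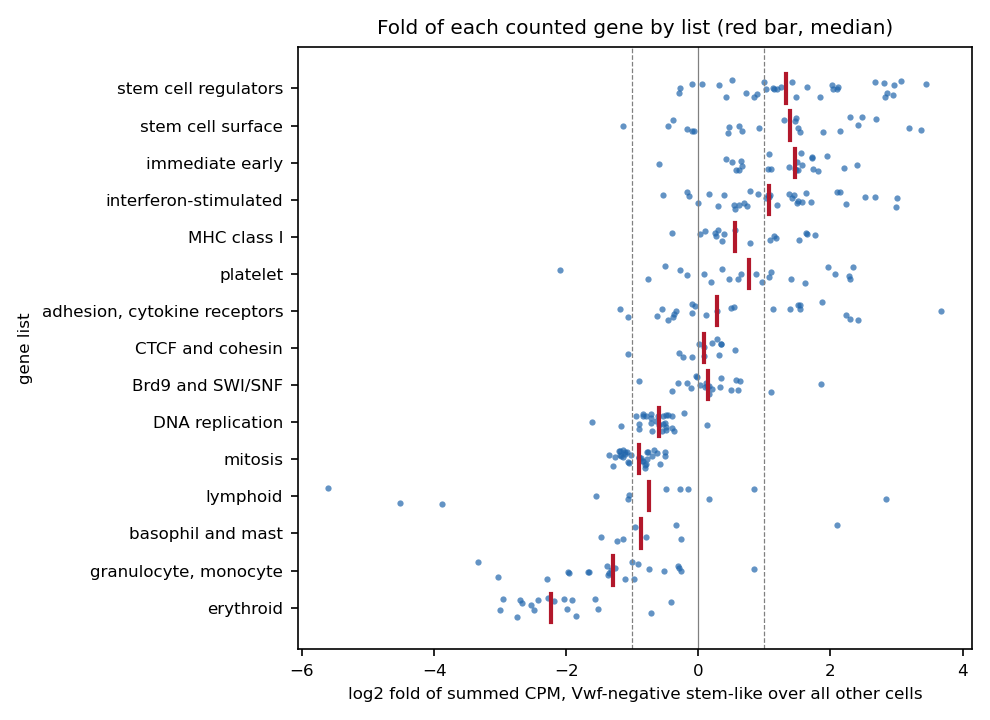
Log2 fold of each counted gene (points, x axis) in Vwf-negative stem-like cells over all other filtered cells, for 15 gene lists (rows), with the median of each list as a red bar and dashed lines at 2-fold. Medians run from 2.76-fold for the immediate early list to 0.213-fold for the erythroid list.

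Transcription factors of stem cells were higher as a group. Of 35 regulators listed, 32 were counted, 21 were at least 2-fold higher and 0 were 2-fold lower, with a median fold of 2.52 against 1.07 over all genes. Nkx2-3, a homeobox factor (chromosome 19, 43612325 to 43615892, plus strand), stood at 79.1 CPM (interval 71.5 to 87.2) in gated cells and at 7.22 CPM elsewhere, a fold of 10.9 (interval 9.73 to 12.3). Hoxa5, Hoxa10 and Hoxb5 were 7.06-, 7.77- and 7.71-fold higher, Meis1, their cofactor, was 4.3-fold higher at 261.6 CPM, and Erg, an ETS factor, was 4.05-fold higher at 83.2 CPM. Factors that many progenitors share differed less: Runx1 stood at 145 CPM against 116 CPM and Ikzf1 at 80.6 CPM against 98.9 CPM.

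Surface and signalling genes of stem cells were split. Of 24 counted of 33, 13 were at least 2-fold higher and Cd48, an antigen that is absent from most stem cells, was 2-fold lower at 48.9 CPM against 107.4 CPM. Sult1a1, a sulfotransferase gene on the list, stood at 77.9 CPM and 10.4-fold above the other cells, Slamf1 (the stem cell antigen CD150) at 29.9 CPM and 5.57-fold, Esam at 56.1 CPM and 5.36-fold, and Kit at 237.2 CPM and 2.86-fold. Cd34 differed less, at 142.7 CPM against 104.2 CPM.

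The 15 genes with the highest folds, by the rule in use, ran from Myof at 11.8-fold to Npdc1 at 7.25-fold. Beside Nkx2-3, Sult1a1, Ly6a and Cdkn1c they included Nupr1, a stress-responsive chromatin protein, at 209.6 CPM against 21.4 CPM, Vldlr, a lipoprotein receptor, at 46.4 CPM against 4.41 CPM, Ltb, which encodes lymphotoxin beta, at 71.3 CPM against 8.13 CPM, and Tox, a nuclear factor of lymphocytes, at 30.5 CPM against 3.92 CPM. The 15 lowest were led by immunoglobulin genes: Igkc stood at 15.1 CPM against 1077 CPM and Jchain at 1.19 CPM against 57.7 CPM. Dntt, which adds nucleotides at the joints of immunoglobulin and T cell receptor genes, had 7 UMIs in 3 gated cells.

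As a description only, since the classes were selected on these markers, 41 of 6323 genes had the same order of levels as the mean rank of Procr, Hlf and Mecom across the 8 classes (Spearman's rho of 1; the classes share 1 library). Those with the highest folds were Tnip3, Jam2, Col16a1, Hdgfl3 and Nwd1, the first of them at 59.4 CPM in gated cells against 6.95 CPM elsewhere.

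Genes of the cell cycle machinery were lower. None of the 28 replication genes was 2-fold higher and 2 were 2-fold lower, with a median fold of 0.661. Of 32 mitosis genes 15 were 2-fold lower and all 32 had a fold below 1, with a median of 0.536. Mki67, a proliferation marker, had a UMI in 24% of gated cells at 5000 UMIs (interval 20 to 28.3), in 19.2% of Vwf-positive cells (interval 14.9 to 24) and in 52.5% of the other cells, and in 86.2% of Klf1 cells. Among cyclin-dependent kinase genes and their inhibitors, Cdkn1c, which encodes the inhibitor p57 (chromosome 7, 143458339 to 143461050, minus strand), stood at 40.4 CPM (interval 35.1 to 46.4) against 3.96 CPM, a fold of 10.2 (interval 8.67 to 12), while Ccne1, cyclin E1, stood at 12.5 CPM against 47.8 CPM, a fold of 0.261 (interval 0.201 to 0.335). Cdk6 differed little, at 389 CPM against 373.1 CPM. The cycle lists moved with the cell filter and with thinning. With each cell thinned to 5000 UMIs and the gate applied again to the thinned counts, the medians were 0.425 and 0.353. That setting changes both the weight of deep cells and the cells in the gate, and the part of each was not tested.

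Immediate early genes, transcription factors and their regulators that respond to stimuli within minutes, had the highest median of the 15 lists plotted. Of 24 counted of 30, 17 were at least 2-fold higher, 0 were 2-fold lower and the median fold was 2.76. Egr1 stood at 479.5 CPM against 90.8 CPM, a fold of 5.28 (interval 5.06 to 5.52), Nr4a1 at 32.1 CPM against 6.98 CPM, Junb at 449.4 CPM against 136.1 CPM and Jun at 1629 CPM against 578.9 CPM, whereas Klf4 stood at 29.3 CPM against 44.5 CPM. The heat shock genes Hspa1a and Hspa1b were below the counting limit, at 1.19 and 0.991 CPM. Summed over the list, single gated cells had a median of 9613 CPM and the other cells 2183 CPM, while Vwf-positive cells had 11216 CPM. The higher mitochondrial share and lower depth given above moved with these genes, and their part in the difference was not tested.

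Interferon-stimulated genes were higher as a group, 8 weeks after pIpC. Of 52 genes listed, 50 were in the matrix and 34 were counted; 20 of these were at least 2-fold higher, 0 were 2-fold lower, 30 had a fold above 1 and the median was 2.11. Iigp1 and Igtp are GTPases that act on intracellular parasites, and stood at 44.4 CPM against 5.6 CPM and at 35.5 CPM against 10.9 CPM. Ifitm3, a membrane protein that restricts virus entry, stood at 883.2 CPM against 286.3 CPM, a fold of 3.08 (interval 2.99 to 3.18), although Ifitm genes are close copies whose reads may be split. Isg15, a ubiquitin-like modifier, stood at 23.2 CPM against 8.28 CPM and Gbp2, a guanylate-binding protein, at 34.1 CPM against 7.25 CPM. Irf9, which carries the interferon signal, was at 1.45-fold, and Bst2, or tetherin, stood at 112.9 CPM against 124.5 CPM.

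The difference lay in most gated cells and not in a few. The summed interferon list had a median of 4178 CPM over single gated cells (5th percentile 1870, 95th percentile 8114), 4947 CPM over Vwf-positive cells and 1770 CPM over the others, and 95.6% of gated cells lay above the median of the others. Among the classes, the list summed to 3808 CPM in gated cells, 4650 CPM in Vwf-positive cells, 2606 CPM in Pf4 and Treml1 cells, 2112 CPM in Flt3 progenitors and 970.5 CPM in Klf1 cells. MHC class I presentation genes, many of which interferon also induces, had 7 of 17 genes at least 2-fold higher and 0 lower with a median of 1.47, including H2-K1 at 1427 CPM against 672.5 CPM and B2m at 1442 CPM against 836.9 CPM. Receptor genes for interferon differed less: Ifnar1 stood at 29.5 CPM against 21.1 CPM, Ifnar2 at 73.9 CPM against 95.7 CPM and Ifngr1 at 93.1 CPM against 143.6 CPM. A library of mice without pIpC is not analysed here, so the part of the injections cannot be told apart.

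**Figure D3:**
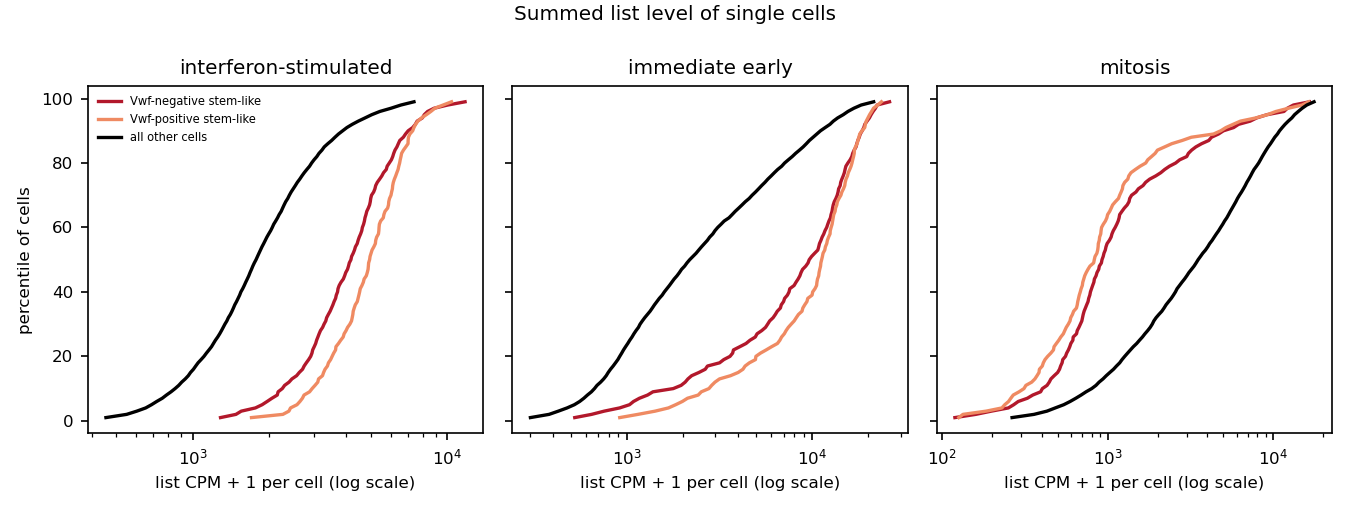
Percentile of cells (y axis) against the summed level of a gene list in a single cell, CPM + 1 on a log scale (x axis), for the interferon-stimulated, immediate early and mitosis lists in gated cells (red), Vwf-positive stem-like cells (orange) and all other cells (black). Medians of gated and other cells were 4178 and 1770 CPM for the interferon list, 9613 and 2183 CPM for the immediate early list and 923.8 and 3514 CPM for the mitosis list.

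The promoters of the interferon list were read to show the element these genes share. Interferon-activated factors bind repeats of GAAA, so the letters GAAANNGAAA were searched on both strands, overlapping matches included, from 250 bases before to 50 after each RefSeq start on GRCm38.p6. A match was found for 23 of the 39 interferon genes with a promoter sequence (59%), against 1079 of 27025 genes with one (3.99%), 1 of 28 stem cell regulators (3.57%) and 1 of 28 immediate early genes. Within the list the match did not separate genes by fold: 10 of 17 genes at least 2-fold higher in gated cells had it, and 6 of 12 counted genes that were not. A match is a description of letters and not of binding.

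The 200 bases before the start are shown 5′ to 3′ on the strand of the gene, with matches on either strand in capitals. Isg15 (chr4:156200819-156201018, minus strand), Gbp2 (chr3:142620463-142620662, plus strand) and Igtp (chr11:58199356-58199555, plus strand) are shown as genes that were higher in gated cells, and Bst2 (chr8:71537473-71537672, minus strand) as one that carries the letters but stood at 0.907-fold. The matches overlap in Isg15, which has 3, and in Bst2, which has 2.
Isg15: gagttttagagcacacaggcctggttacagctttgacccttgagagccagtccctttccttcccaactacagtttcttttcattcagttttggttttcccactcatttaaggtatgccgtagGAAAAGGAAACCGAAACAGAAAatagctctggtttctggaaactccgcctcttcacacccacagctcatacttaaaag
Gbp2: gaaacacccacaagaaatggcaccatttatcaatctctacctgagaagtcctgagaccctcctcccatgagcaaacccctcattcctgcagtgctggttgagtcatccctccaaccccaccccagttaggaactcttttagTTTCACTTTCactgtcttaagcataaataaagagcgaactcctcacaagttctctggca
Igtp: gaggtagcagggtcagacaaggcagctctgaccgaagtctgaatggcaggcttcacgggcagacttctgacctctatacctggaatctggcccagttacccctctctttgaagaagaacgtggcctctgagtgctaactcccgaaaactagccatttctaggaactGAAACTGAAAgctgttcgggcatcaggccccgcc
Bst2: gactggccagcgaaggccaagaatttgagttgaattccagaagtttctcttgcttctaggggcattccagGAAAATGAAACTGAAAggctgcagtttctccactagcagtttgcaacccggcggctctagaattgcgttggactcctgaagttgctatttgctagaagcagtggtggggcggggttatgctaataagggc

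Lineage genes differed by list. Of 18 erythroid genes counted 16 were 2-fold lower in the summed UMIs, with Klf1, the erythroid master factor, at 15.5 CPM against 87.1 CPM. The list summed to 13186 CPM in Klf1 cells, to 1435 CPM in gated cells and to 248.8 to 1238 CPM in the other 5 non-stem classes, and over single cells its median was 987.2 CPM in gated and 479.4 CPM in all other cells, the opposite order. None of 6 dendritic genes was past 2-fold. The dendritic list summed to 0.89-fold, but over single cells its median was 448.3 CPM in gated and 229.9 CPM in all other cells. Of 22 granulocyte and monocyte genes 14 were 2-fold lower, with Irf8, a monocyte and dendritic cell factor, at 58.3 CPM against 284.9 CPM. The granulocyte and monocyte list summed to 7594 CPM in gated cells. It was lower in Vwf-positive, Pf4 and Treml1 and Klf1 cells, at 3550, 3503 and 2027 CPM. It was higher in Flt3, Cpa3, Csf1r and Cebpe cells, at 14686 to 48636 CPM. Of 12 lymphoid genes 6 were 2-fold lower and Gata3, known from T cells, was 2-fold higher at 31.3 CPM against 4.39 CPM. The B cell factor Ebf1 and the recombinase gene Rag1 had 0 UMIs, where 3 UMIs would be 0.594 CPM. The lymphoid list summed to 0.527-fold, but over single cells its median was 482.4 CPM in gated and 483.5 CPM in all other cells. Of 22 platelet genes 9 were at least 2-fold higher and Serpine2 was lower, with a median fold of 1.7; Selp, the adhesion receptor P-selectin, stood at 65.2 CPM against 13.4 CPM and Mmrn1, a platelet granule protein, at 125.2 CPM against 24.6 CPM, whereas Ppbp and Gp1bb of mature megakaryocytes were at 1.39 and 0.594 CPM. Adhesion and cytokine receptor genes had 10 of 25 at least 2-fold higher and 2 lower, led by Ramp2, a receptor partner of adrenomedullin, at 22.6 CPM against 1.76 CPM; Angpt1, the ligand of the Tie2 receptor, stood at 364.2 CPM against 77.3 CPM. Genes of oxidative phosphorylation had none of 85 past 2-fold, but 2 alone had a fold above 1 and the median was 0.735, and the ribosomal protein median was 0.977.

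Markers of cells that a marrow sort can carry along were near 0 apart from genes that stem cells share with endothelium. The endothelial list summed to 198 CPM in gated cells and 105 CPM elsewhere; its junction gene Cldn5 stood at 28.3 CPM against 2.09 CPM and Tie1 at 35.7 CPM against 8.09 CPM, while the defining genes Cdh5, Stab2 and Sox17 had 0 UMIs, as 3 of the 12 genes did. The stroma list summed to 15.7 CPM, with 8 of its 10 genes at 0, Cxcl12 and Lepr among them. The macrophage list summed to 7.53 CPM and the B cell list to 0.396 CPM. The T and NK list summed to 197.6 CPM, of which Nkg7, also a granulocyte gene, made up 196.2 CPM.

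Brd9, the gene floxed in these mice (chromosome 13, 73937811 to 73960895, plus strand), stood at 28.1 CPM in gated cells and 30.4 CPM in the others, a fold of 0.927 with an interval of 0.779 to 1.1 that holds 1. It was 34.9 CPM in Vwf-positive cells, 37.4 CPM in Flt3 progenitors and 23.6 CPM in Klf1 cells. Of 22 genes of Brd9 and the SWI/SNF chromatin remodelers counted, 2 were at least 2-fold higher, a share near the 9.75% of all genes, and the median was 1.1 against 1.07. These were Smarca2, an alternative ATPase of the complex, at 134.7 CPM against 37.4 CPM and Arid1b at 107 CPM against 50.1 CPM. Of 13 CTCF and cohesin genes, which shape chromosome loops, 0 were higher and Esco2, a replication-linked acetyltransferase, was lower at 21.8 CPM against 45.8 CPM, while Ctcf stood at 150.2 CPM against 161.4 CPM. Of 17 Polycomb and DNA methylation genes 2 were at least 2-fold higher, also near the share of all genes, with a median of 1.09. Tet1 and Ezh1 were 2.51- and 2.44-fold higher, and Ezh2, the paralog of dividing cells, stood at 110.2 CPM against 167.1 CPM. Of imprinted genes 4 of 6 counted were at least 2-fold higher: Cdkn1c, Ndn, Grb10 and Igf2r.

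Few genes separated the gated cells from Vwf-positive stem-like cells by 2-fold. Of 8778 genes counted 47 (0.535%) were at least 2-fold higher and 65 (0.74%) at least 2-fold lower, with a median fold of 0.991 and quartiles of 0.874 and 1.11. Of the 12 label genes, 11 had a fold below 1. Stem cell regulators had a median of 0.837 with 26 of 33 below 1 and none past 2-fold, interferon genes 0.841 with 35 of 40 below 1, and immediate early genes 0.802 with 21 of 25 below 1. Mllt3, a regulator of stem cell maintenance, stood at 125.4 CPM against 226 CPM, a fold of 0.555 (interval 0.499 to 0.617). Hoxa9 was at 69.6 CPM against 63.7 CPM.

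**Figure D4:**
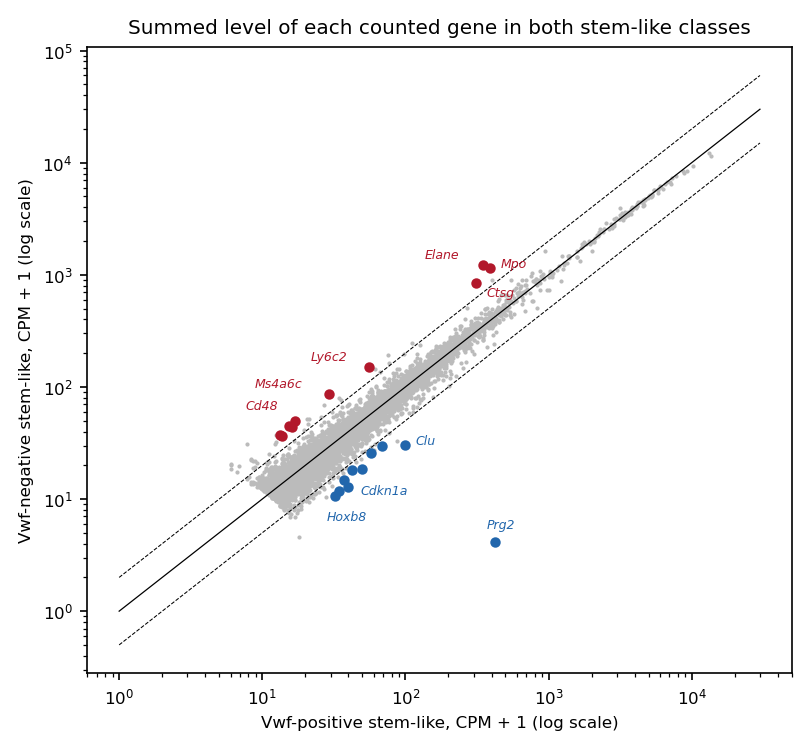
Level of each counted gene in Vwf-negative (y axis) and Vwf-positive (x axis) stem-like cells, CPM + 1 on log scales, with lines at equality and at 2-fold, the 10 genes named as highest in red and the 10 named as lowest in blue, some of them labelled. The granule genes Elane, Mpo and Ctsg lie above the upper line, and Prg2, far below the lower line, comes almost wholly from 1 Vwf-positive cell.

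Platelet genes were lower in gated cells: 19 of 21 had a fold below 1, 2 were 2-fold lower and the median was 0.704. Clu, or clusterin (chromosome 14, 65968483 to 65981547, plus strand), stood at 29.3 CPM (interval 24.8 to 34.5) against 98.3 CPM, a fold of 0.298 (interval 0.244 to 0.362), and Itga2b, the integrin CD41, at 59.2 CPM against 111.3 CPM. Stem cell surface genes were also lower in part, with 5 of 31 past 2-fold: Slamf1 stood at 29.9 CPM against 60.3 CPM, a fold of 0.496 (interval 0.4 to 0.614), and Fgd5 at 16.2 CPM against 35.8 CPM, a fold of 0.454. The cell cycle inhibitor Cdkn1a, or p21, stood at 11.9 CPM against 38.9 CPM, a fold of 0.306 (interval 0.222 to 0.417), and Meg3, an imprinted noncoding RNA, at 13.7 CPM against 36.3 CPM. Across the alternative settings Cdkn1a ran from 0.193- to 0.753-fold, Meg3 from 0.277 to 0.673, Itga2b from 0.275 to 0.698 and Slamf1 from 0.433 to 0.62. None of these was past 2-fold in every setting, whereas Clu was, at 0.238 to 0.425. Prg2, an eosinophil granule gene, was at 3.17 CPM against 424.4 CPM, but 98.1% of its Vwf-positive UMIs came from 1 cell that was a doublet call.

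Cd34 and Cd48 were the stem cell surface genes at least 2-fold higher in gated cells. Cd34, a progenitor antigen that long-term stem cells of adult mice lack (chromosome 1, 194938819 to 194961279, plus strand), stood at 142.7 CPM (interval 132.4 to 153.5) against 60 CPM, a fold of 2.38 (interval 2.04 to 2.78). Cd48 was at 48.9 CPM against 16.1 CPM, a fold of 3.05. Across the alternative settings the Cd34 fold ran from 1.81 to 3.51 and the Cd48 fold from 1.51 to 9.93. Neither was therefore at 2-fold in every setting. Sox4 and Cdk6 were below 2-fold, at 1.45 (interval 1.34 to 1.58) and 1.35 (interval 1.25 to 1.46), as was the costimulatory receptor Cd27 at 1.47. Replication genes had 27 of 28 folds above 1 with a median of 1.3, whereas mitosis genes had a median of 0.999. Against cells with 3 or more Vwf UMIs some differences were wider and others not: Fgd5 stood at 0.455-fold (interval 0.294 to 0.72) and Ly6a at 0.924-fold (interval 0.728 to 1.19), while Cd34 was 3.51-fold higher (interval 2.47 to 5.14), Slamf1 stood at 0.433-fold (interval 0.317 to 0.6) and Cdkn1c at 0.505-fold (interval 0.38 to 0.678). Cd48 was 9.93-fold higher (interval 3.83 to 36.7), with 4 UMIs in those cells, and the granule gene Elane 16.5-fold higher (interval 12.8 to 21.7).

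Neutrophil granule genes were among the largest folds over Vwf-positive cells, and most of their UMIs came from few cells. Elane, neutrophil elastase (chromosome 10, 79886247 to 79888215, plus strand), stood at 1220 CPM against 345.2 CPM, a fold of 3.54 (interval 3.33 to 3.76), and Mpo, myeloperoxidase, at 1159 CPM against 391.1 CPM. Over single cells, Elane, Mpo, Ctsg, Prtn3 and Ms4a3 together had a median of 8 UMIs in both stem-like classes and of 5 in the deeper Klf1 cells, which should lack them. Prtn3 alone had a UMI in 429 gated cells, whereas Elane had one in 169. In 56 of 434 gated cells (12.9%, interval 9.9 to 16.4) the sum was 50 UMIs or more, and these held 88% of the class's granule UMIs; 16 of 313 Vwf-positive cells (5.11%, interval 2.95 to 8.17) and 100 of 1178 Klf1 cells (8.49%, interval 6.96 to 10.2) passed the same limit. Without such cells Elane stood at 39.3 CPM in gated and 45.3 CPM in Vwf-positive cells, a fold of 0.868 that the limit itself sets, since Elane is in the sum, while Cd34 remained 2.54-fold higher (interval 2.12 to 3.05), Cd48 3.55-fold higher (interval 2.16 to 6.11) and Clu stood at 0.33-fold (interval 0.267 to 0.405). Slamf1 and Fgd5 were then no longer past 2-fold, at 0.588-fold (interval 0.471 to 0.733) and 0.505-fold (interval 0.372 to 0.681).

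**Figure D5:**
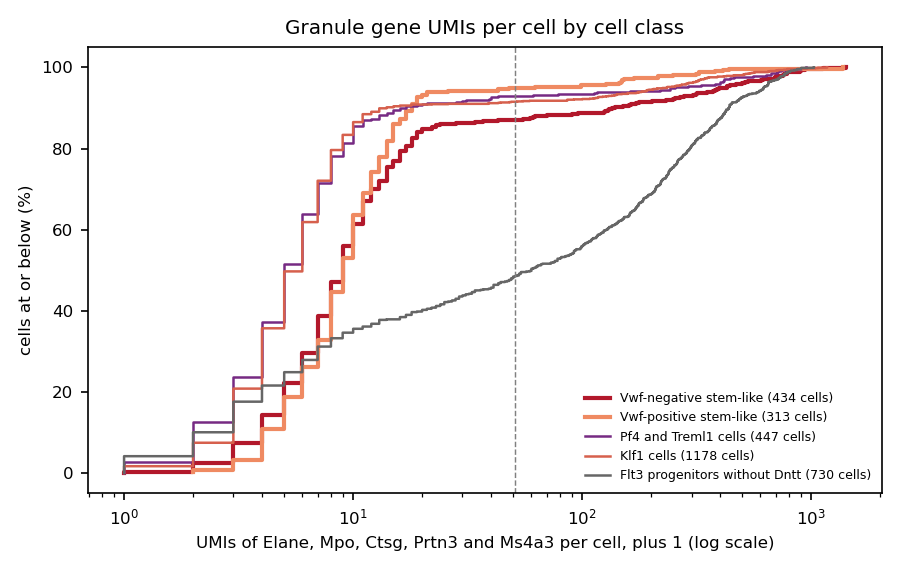
Share of cells (y axis) at or below a number of granule gene UMIs per cell, plus 1 on a log scale (x axis), in 5 cell classes, with a dashed line at 50 UMIs. Both stem-like classes have a median of 8 UMIs, and the Vwf-negative class has a longer tail, with 12.9% of its cells at 50 or more against 5.11% of Vwf-positive cells.

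The 56 granule-high cells differed from the remaining 378 gated cells in more than granule genes. Their median depth was 24024.5 UMIs against 8282.5, and 16 of them (28.6%, interval 17.3 to 42.2) were doublet calls against 4 of the 378 (1.06%). Meis1 stood at 70 CPM in them against 334.1 CPM, Nkx2-3 at 21.6 CPM against 100.8 CPM and Ly6a at 23.1 CPM against 116.9 CPM, a fold of 0.197 (interval 0.133 to 0.283). Mitosis genes summed to 4213 CPM against 2575 CPM and the interferon list to 2123 CPM against 4446 CPM. At the greater depth of these cells 1 UMI of a gate gene is a lower level, and the part of depth and of doublets in these differences was not tested. With the granule-high cells left out, Ly6a over Vwf-positive cells changed from 0.867-fold (interval 0.755 to 0.997) to 1.04-fold (interval 0.899 to 1.2).

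The gated cells also varied by the antigens that sort stem cells from multipotent progenitors. A UMI of Slamf1 and none of Cd48 was found in 101 cells, Cd48 and no Slamf1 in 79, both in 9 and neither in 245. The 79 Cd48 cells were deeper, at a median of 18929 UMIs against 8479 in the Slamf1 cells, and 10 of them (12.7%, interval 6.24 to 22) were doublet calls against 3 of 101; 57% had 50 or more granule UMIs, against 1.98%. Relative to Cd48 cells, Slamf1 cells had 7.18-fold more Ly6a (153.8 against 21.4 CPM, interval 4.92 to 10.8), 7.56-fold more Nkx2-3 (interval 4.87 to 12.2), 7.29-fold more Cdkn1c (interval 4.03 to 14.1), 5.25-fold more Egr1 (interval 4.49 to 6.15) and 2.2-fold more of the summed interferon list, and less Cd34 (46.3 against 257.6 CPM) and Mki67 (104.3 against 273.3 CPM). The 245 cells with neither UMI lay near the Slamf1 cells in some genes and not in others. Meis1 was at 334.2 against 371.8 CPM, a fold of 1.11 for Slamf1 cells over them (interval 0.978 to 1.26), Nkx2-3 at 111.4 against 119 CPM and the ribosomal protein list at 304880 against 310466 CPM, but Cd34 was 106.2 CPM in them, a fold of 0.436 for Slamf1 cells (interval 0.309 to 0.604). Slamf1 cells also had 1.32-fold more Ly6a (interval 1.07 to 1.62), 2.46-fold more Elane (interval 2.07 to 2.92) and 2.21-fold more Mpo than these cells. Both groups had a median of 7 granule UMIs per cell, with 1.98% and 1.22% of their cells granule-high. Elane stood at 288.6 and 117.5 CPM in them, against 39.3 CPM in all gated cells under 50 granule UMIs. The Elane and Mpo folds thus rest on very few cells, which the intervals do not cover.

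Cells with all 3 gate markers differed from cells with 2, and lineage lists went both ways. The platelet list was 1.29-fold (interval 1.24 to 1.34) and the lymphoid list 1.19-fold (interval 1.09 to 1.28) in them. The erythroid, granulocyte and monocyte, and basophil and mast lists were lower, at 0.736-, 0.599- and 0.765-fold. In the 171 cells with Procr, Hlf and Mecom, Ly6a stood at 148 CPM against 62.2 CPM in the 263 cells with 2 markers, a fold of 2.38 (interval 1.97 to 2.87), Meis1 at 336 against 223.7 CPM and the summed immediate early list at 10067 against 7101 CPM. Cd34 was at 108.1 against 160.3 CPM, a fold of 0.674 (interval 0.567 to 0.799), the replication list at 1823 against 3023 CPM and Elane at 848.8 against 1410 CPM. Brd9 stood at 28.8 and 27.8 CPM, a fold of 1.03 with an interval of 0.717 to 1.48. The 3-marker cells were slightly shallower, at a median of 8046 against 9567 UMIs, and 5.85% of them were granule-high against 17.5%.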

How the data were processed

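Single-cell RNA-seq of 1 library of control LK cells was analysed. The authors aligned reads to mm10 and counted UMIs per gene and cell with Cell Ranger 6.0.2, and deposited raw UMI counts for 8817 barcodes and 32285 genes (167452386 UMIs). The study's filter (UMIs between 1000 and 50000, genes between 1000 and 6500, mitochondrial UMIs below 7%) kept 7645. The gate, the comparison classes and all levels were computed here from raw counts, and no clustering was used. Members and gene lists were chosen with earlier results of these data known.

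Each class's UMIs were summed and given as CPM. A gene was counted at a mean of 10 CPM over both classes, outside the 7 gate genes, and called at 2-fold. Of counted genes at 30 CPM or more in the higher class, the 15 highest and 15 lowest folds over other cells and the 10 at each end over Vwf-positive cells were named (no mitochondrial, ribosomal or unnamed models), with up to 5 genes a list chosen by fold or familiarity; further list members were named after their values were seen. The rest were classed, first match first, as Pf4 and Treml1 cells (3 UMIs of Pf4 and any of Treml1), Klf1, Cebpe, Csf1r or Cpa3 cells (3 UMIs of the gene) or Flt3 progenitors (any Flt3, no Dntt, under 2 stem markers). Doublets were called with Scrublet (expected rate 6%, scanpy 1.11.5) and kept. Thinning used seed 1. Python 3.11.15, numpy 2.4.6, scipy 1.17.1 and matplotlib 3.10.9 were used, and the ratio intervals were tested on simulated data. Intervals cover counting error only, since 1 library has no replicate. Positions are from GENCODE on GRCm38; 22 of 99 genes looked up overlap another gene on the same strand, among them Mecom, Meis1, Cd48, Fgd5, Itga2b, Jam2 and Meg3, and reads in the overlap cannot be assigned. Alternatives varied the cell filter, doublets, depth, gate, denominator, scaling, weight of cells and CPM limit. Values of a few genes that the rule names are not reported here.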

Additional observations from a re-analysis of the deposited data

Results flagged for a closer look

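Barcodes outside the cell filter entered no comparison, and 13 of the 1172 (1.11%, Clopper-Pearson interval 0.592 to 1.89) met the gate. Of these 11 exceeded the mitochondrial limit, and their median was 8510 UMIs with a mitochondrial share of 8.58%. They carried 121.7 CPM of Ly6a (interval 76.3 to 184.3), 226.8 CPM of Meis1 (interval 162.8 to 307.7) and 71.9 CPM of Nkx2-3 (interval 38.3 to 123), against 91.2, 261.6 and 79.1 CPM in the gated cells.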

How the results depend on the processing

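With 1 library, sampling between animals is not measured, and depth limits every call on an absent UMI. No paired analysis was possible because there is 1 library. Of 232 recomputed comparison values 172 moved by less than their spread or 1.5 times, 60 moved and 0 reversed. Of 345 single-gene values 226 stayed, 118 moved and 1 reversed. A reversal was recorded only for a list median or gene fold first reported at 2-fold or more in either direction. Shares, counts of genes, genes per cell and smaller folds could therefore not be recorded as reversed. Ly6a over Vwf-positive cells, under 2-fold throughout, ran from 0.792 to 1.29 and so lay on both sides of 1. Leaving out granule-high cells, leaving out genes held by 1 cell and raising the Vwf limit to 3 UMIs were chosen after seeing the data. The cause of each shift was not tested.

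The 814 genes higher than in other cells were 1230 with all 3 markers, 269 at a limit of 30 CPM and 4281 with no limit; the 242 lower were 515, 119 and 767, and 576 at 5000 UMIs per cell, 478 without granule-high cells and 397 by the mean of cell CPM. Over Vwf-positive cells the 47 higher genes were 172 against cells with 3 Vwf UMIs, 135 after thinning, 82 with 3 markers, 75 with no Pf4 or Treml1 limit, 23 without granule-high cells, 20 at 30 CPM and 588 with no limit. The 65 lower were 222 against 3 Vwf UMIs, 130 after thinning, 113 without mitochondrial, ribosomal and haemoglobin UMIs, 111 with the stricter cell filter, 36 without granule-high cells, 11 at 30 CPM and 980 with no limit. Without granule-high cells Elane over Vwf-positive cells went from 3.54 to 0.868, which the filter sets, since Elane is one of its genes.

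Against all other cells, granule-high cells were left out of the gated class alone, while 47.7% of the other cells are granule-high, so the myeloid median in that setting is set by the filter. List medians are given in the order thinned, 3 markers, granule-high cells left out: mitosis 0.353, 0.382 and 0.422, replication 0.425, 0.455 and 0.584, myeloid 0.088, 0.265 and 0.0422, and oxidative phosphorylation 0.672, 0.656 and 0.663. With 3 markers and without granule-high cells, the erythroid median was 0.124 and 0.152 and the immediate early median 3.34 and 3.39. By the mean of cell CPM mitosis was 0.41, replication 0.555 and myeloid 0.212. With the stricter filter mitosis was 0.65, replication 0.781 and oxidative phosphorylation 0.782. Without doublet calls erythroid was 0.156 and myeloid 0.315. With no Pf4 or Treml1 limit mitosis was 0.581. Divided by the median fold, oxidative phosphorylation was 0.686 and ribosomal proteins 0.913.

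The Mki67 share was 18.3% with 3 markers, 18.7% without granule-high cells and 31.3% with the stricter filter. The gated share of cells was 2.24% with 3 markers, 6.4% with no Pf4 or Treml1 limit and 4.13% with the stricter filter. The Vwf-positive share was 28.1% thinned, 49% with 3 markers and 49.9% with no Pf4 or Treml1 limit. Genes per cell were 2071 without granule-high cells.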

Other observations

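Glycolysis genes did not move together in the gated cells. Of 21 counted 4 were at least 2-fold higher than in all other cells and 0 were 2-fold lower, with a median of 1.15. Txnip, which restrains glucose uptake, stood at 401.5 CPM against 103.4 CPM, Slc2a3, a glucose transporter, at 55.9 CPM against 15.1 CPM and Ldhb, a lactate dehydrogenase subunit, at 74.7 CPM against 23.9 CPM, while the glycolytic enzyme Gapdh stood at 973.9 CPM against 1333 CPM.

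Of 8 basophil and mast cell genes counted 3 were 2-fold lower in the summed UMIs, where Cpa3 cells had 20640 CPM of the list, but over single cells its median was 966.6 CPM in gated and 205.3 CPM in all other cells. Ifitm1, also on the interferon list, was 4.29-fold higher at 731.4 CPM against 170.4 CPM. The whole basophil and mast list summed to 1512 CPM in gated cells, so its level rests in large part on this gene. The list members Prss34 and Mcpt8 had a UMI in 57 and 52 gated cells. Of their UMIs 43% and 43.9% came from 1 cell each. Metallothionein 2 (Mt2), a metal-binding protein, stood at 28.9 CPM in gated cells, 67.3 CPM in Vwf-positive cells and 70.9 CPM in all other cells.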
